A study of Mus musculus with 3 samples.

Results

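Ion, phosphate and organic anion transporters were followed across 3 layers, endoderm, mesoderm and epiblast, of the embryonic day 7.5 (E7.5) mouse embryo. The group was defined by name alone, as every gene whose symbol begins with Slc4a, Slc5a, Slc8a, Slc9a, Slc12a, Slc13a, Slc17a, Slc20a, Slc22a, Slc23a, Slc26a or Slc34a and then holds only a number, or begins with Slco. This gave 105 genes of 18193 named on the array, measured by 192 of 34945 named probe sets, a probe set being a group of short probes against the same transcript. All 3 samples came from embryos of the outbred ICR strain, with no treatment or altered allele given in the labels. The layers were dissected after digestion with trypsin and pancreatin, and the epiblast sample held the neuroectoderm and the primitive streak. RNA of each layer (100 ng) was hybridised to 1 Affymetrix Mouse Genome 430 2.0 array, and the sources used here do not state how many embryos an array stands for. With 1 array per layer there is no replicate check on any difference and no test was possible.

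Most of these families move solutes by secondary active transport. Many of their members use the sodium gradient that the Na,K-ATPase builds to draw phosphate, sulfate, ascorbate, glucose or myo-inositol into the cell, others exchange chloride, bicarbonate, protons or calcium, and the Slc22a and Slco proteins carry organic ions, among them hormones, drugs and bile acids. Polarised epithelia such as the kidney tubule and the intestine place them on their apical or basolateral face. The visceral endoderm, which covers the early mouse embryo, is an absorptive epithelium with microvilli and takes up nutrients before the placenta works.

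Of the 105 transporter genes, 17 showed a 2-fold difference or more in some pair of layers, and 16 of these had their highest value in endoderm. Values are intensities on a linear scale, and a difference was counted where the log2 difference was at least 1 after both values had been raised to a floor of 80.6, the median value of the whole table. The share of transporters counted in any pair (16.2%) was near that of all genes (13.2%). By probe set, 23 of 192 were counted, and 10.5% of all named probe sets were. The direction was uneven in the pairs with endoderm, as it was over all genes. In endoderm 15 transporters (14.3%) were higher than in epiblast, against 7.95% of all genes, and 0 were lower, against 2.23%. Likewise 15 (14.3%) were higher in endoderm than in mesoderm, against 7.12%, and 0 were lower, against 2.24%. Between mesoderm and epiblast 3 (2.86%) were higher in mesoderm, against 2.04%, and 0 were lower, against 1.72%. At least 2-fold above both other layers stood 14 transporters (13.3%) in endoderm, against 5.65% of all genes. None stood so in mesoderm or in epiblast, where the shares of all genes were 0.912% and 0.638%. The background itself moves with the scaling. Of all genes counted between endoderm and epiblast 78.1% were higher in endoderm on the deposited scale, 64.4% after quantile normalization and 96.5% after centring on housekeeping genes, and between endoderm and mesoderm 76.1%, 65.6% and 91.2%, while the transporters counted in these pairs were all higher in endoderm each time. Genes lower in endoderm were rare over all genes, too rare to read the 0 as a result about the transporters. Between mesoderm and epiblast the housekeeping centring gave 66.6%, against 54.2% on the deposited scale. With that centring 23 of 105 transporters and 3644 of 18193 genes had endoderm above epiblast by 2-fold. With the floor at the 75th percentile of all values instead, 6 transporters were higher than epiblast in endoderm, nearer to the 4.84% of all genes, and Slc4a2, Slc12a4, Slc12a9, Slc22a7, Slc23a3, Slc26a6, Slc34a2, Slc8a3, Slco1a6 and Slco3a1 each lost at least 1 call.

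A 2-fold difference was larger than the usual disagreement among probe sets of 1 gene, as far as these were above the floor. The pooled SD of their log2 differences, where both layers were above the floor, was 0.31 for endoderm minus epiblast (4614 genes), 0.20 for mesoderm minus epiblast (4720 genes) and 0.29 for endoderm minus mesoderm (4630 genes). Within the transporters it was 0.37, 0.44 and 0.28, over 10, 10 and 11 genes. This is a spread between probe sets and not between embryos, and it leaves out probe sets below the floor in either layer. Of the 17 transporters counted, 7 had several probe sets, and the others had 1 and so no second reading. All probe sets were counted for Slc26a2 and Slco4c1 alone. For Slc12a9, Slc23a1 and Slc8a3, 1 of 2 was counted, and for Slc5a3 and Slco3a1, 2 of 3.

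**Figure D1:**
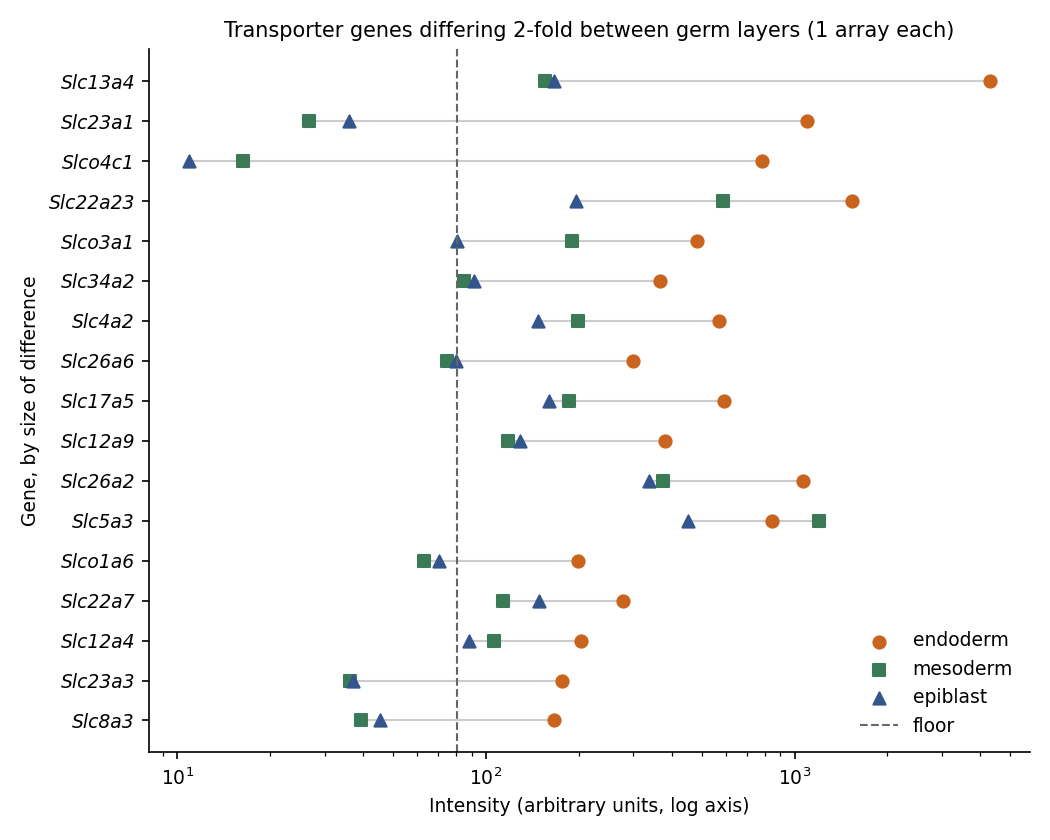
Intensity on a log axis of the 17 transporter genes that differed by 2-fold or more between germ layers, with 1 point per layer and array, and a dashed line at the floor of 80.6. The endoderm point lies farthest to the right for 16 genes, and Slc5a3 has its highest value, 1198, in mesoderm.

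The array values matched the labelled layers for 5 of 6 marker genes. Sox17 and Foxa2 had their highest values in endoderm, Sox2 had its highest in epiblast, and Foxf1 and Kdr in mesoderm, while Pax6, at 181 in endoderm, 92.4 in mesoderm and 121 in epiblast, was not highest in epiblast, the layer it was taken to mark. Markers of the visceral endoderm were high in the endoderm sample. All 12 were 2-fold higher in endoderm than in either other layer, and their intensities had sums of 64614 in endoderm, 1667 in mesoderm and 1658 in epiblast, to which Rbp4 (8942 in endoderm), Apob (8725) and Ttr (8453) gave the most. Afp, Apob, Amn and Cubn were below the floor in mesoderm and in epiblast. Of 6 parietal endoderm markers, 5 were higher in endoderm than in epiblast and 3 than in mesoderm, with sums of 10219 in endoderm, 4707 in mesoderm and 2698 in epiblast. Of the trophoblast (8), erythroid (7), maternal decidua (5) and immune (4) markers measured, 0 differed by 2-fold. Trophoblast markers had sums of 2622 in endoderm, 1927 in mesoderm and 3313 in epiblast. Most of them came from Cdx2 (1283 in endoderm, 932 in mesoderm and 1817 in epiblast), as well as Eomes (773 in endoderm, 470 in mesoderm and 886 in epiblast), which the primitive streak also expresses. Sums of erythroid markers (429 in endoderm, 394 in mesoderm and 403 in epiblast), decidua markers (265 in endoderm, 316 in mesoderm and 284 in epiblast), as of immune markers (203 in endoderm, 197 in mesoderm and 218 in epiblast) were low throughout. Elf5, Tpbpa and Rhox9 (trophoblast), Hbb-y and Hba-x (erythroid), Prl8a2 (decidua) and Ptprc (immune) were below the floor on all arrays. The part that the amount of visceral endoderm in the sample had in the transporter values below was not tested. In a bulk sample, fewer cells of a type and less RNA per cell cannot be told apart.

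Promoters are shown for Slc13a4, a sulfate transporter, and for Slco4c1 and Slc22a23, of the organic anion families, because these were among the 4 transporters with the largest differences between layers once values were raised to the floor. Each runs 5′ to 3′ on the gene's strand from 250 bases before the start of the RefSeq transcript to 50 after it, in build GRCm38.p6, and capitals mark matches to the motifs named below. Slc13a4 lies at chr6:35308077-35308376, Slco4c1 at chr1:96872122-96872421 and Slc22a23 at chr13:34345169-34345468, all on the minus strand.
Slc13a4: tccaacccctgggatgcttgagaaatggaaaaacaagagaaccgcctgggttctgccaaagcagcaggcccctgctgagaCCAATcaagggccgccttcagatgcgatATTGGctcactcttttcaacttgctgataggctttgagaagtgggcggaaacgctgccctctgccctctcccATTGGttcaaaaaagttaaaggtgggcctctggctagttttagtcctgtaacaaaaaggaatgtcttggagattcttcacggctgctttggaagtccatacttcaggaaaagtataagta
Slco4c1: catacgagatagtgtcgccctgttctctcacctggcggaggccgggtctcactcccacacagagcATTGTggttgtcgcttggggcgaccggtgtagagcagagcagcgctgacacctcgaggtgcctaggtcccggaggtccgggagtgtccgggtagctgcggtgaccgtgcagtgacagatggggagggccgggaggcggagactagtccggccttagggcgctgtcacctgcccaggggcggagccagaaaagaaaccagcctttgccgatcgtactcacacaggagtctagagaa
Slc22a23: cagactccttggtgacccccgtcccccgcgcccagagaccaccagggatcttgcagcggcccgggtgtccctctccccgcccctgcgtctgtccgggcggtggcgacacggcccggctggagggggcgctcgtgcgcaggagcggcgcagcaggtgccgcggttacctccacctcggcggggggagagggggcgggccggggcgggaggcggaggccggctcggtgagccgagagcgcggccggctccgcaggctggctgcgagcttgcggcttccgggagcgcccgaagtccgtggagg

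The promoters differ in base composition, with a GC content of 48.7% for Slc13a4, 63.0% for Slco4c1 and 77.3% for Slc22a23, and with 6, 21 and 38 CG dinucleotides, against medians of 52.7% and 7 over 32851 promoters. The motifs were searched on both strands as GATAA for GATA factors, ACAAT for SOX factors, TGTTTAC for FOXA, GTTAAT for HNF1, CAAAGTCCA for HNF4 and CCAAT for the CCAAT box. ACAAT and CCAAT differ only in their first letter, so no stretch of bases matches both in the same place. Slc13a4 held 3 CCAAT matches, Slco4c1 held 1 SOX match and Slc22a23 held none. The table had promoters for 85 of the 105 transporters, and for 11 of the 14 that were 2-fold above both other layers in endoderm. Of the 12 promoters of those 11 genes, 6 held CCAAT (37.4% of all promoters), 2 held ACAAT (31.0%), 1 held GATAA (25.4%) and 1 held GTTAAT (7.10%). None held TGTTTAC (3.65%) or CAAAGTCCA (0.475%). The promoter of Slc23a3 held both the GATAA and the GTTAAT match.

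With values raised to the floor, the largest differences of the group belonged to a sulfate carrier, an ascorbate carrier and an organic anion carrier, in this order. Slc13a4, a sodium-coupled sulfate transporter, had an intensity of 4292 in endoderm, 156 in mesoderm and 167 in epiblast. By the only probe set of this gene, endoderm was 25.7-fold above epiblast and 27.6-fold above mesoderm, and all 3 values were above the floor. The other 4 Slc13a genes, for sulfate and for citric acid cycle intermediates, were above the floor but under 2-fold, with Slc13a3, the sodium-dicarboxylate transporter, at 197 in endoderm, 130 in mesoderm and 121 in epiblast. Slc26a2, a sulfate transporter needed for cartilage, had 1063 in endoderm, 375 in mesoderm and 337 in epiblast, 3.15-fold above epiblast and 2.84-fold above mesoderm. All 3 of its probe sets gave this order, the others reading 640 and 449 in endoderm, against 251 and 139 in mesoderm and 229 and 124 in epiblast.

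Slc23a1, the sodium-dependent vitamin C transporter of absorptive epithelia, had 1100 in endoderm and was below the floor in mesoderm (26.6) and epiblast (36.0). Endoderm was at least 13.6-fold above both. Its other probe set was dim, with 92.2 in endoderm, 15.8 in mesoderm and 13.3 in epiblast, too low to be counted. The second vitamin C transporter, Slc23a2, known from tissues throughout the body, did not share this pattern, with 160 in endoderm, 169 in mesoderm and 198 in epiblast. Slc23a3 had 177 in endoderm, 36.4 in mesoderm and 37.0 in epiblast, at least 2.19-fold above both, and Slc23a4 was level at 124 in endoderm, 128 in mesoderm and 125 in epiblast.

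Of the phosphate carriers of the Slc34a and Slc20a families, Slc34a2 alone was counted. Slc34a2, the sodium-phosphate cotransporter of the intestinal and lung apical membrane, had 367 in endoderm, 85.0 in mesoderm and 91.3 in epiblast, which is 4.02-fold above epiblast and 4.32-fold above mesoderm. Its renal relatives were under the limit. Slc34a1 had 75.5 in endoderm, 59.8 in mesoderm and 81.0 in epiblast. Slc34a3 had 238 in endoderm, 203 in mesoderm and 227 in epiblast. The Slc20a genes encode the sodium-phosphate carriers that most cells use. Slc20a1 had 1226 in endoderm, 1012 in mesoderm and 914 in epiblast. Slc20a2 had 700 in endoderm, 475 in mesoderm and 545 in epiblast. Their log2 differences between layers reached at most 0.42 and 0.56. Both were among the 5 transporters that stayed above an intensity of 286, the 75th percentile of all values, on all arrays and under the 2-fold limit. In the Slc17a family, whose members carry phosphate and organic anions or load glutamate into vesicles, Slc17a5 alone of 7 was counted. It encodes sialin, which exports sialic acid from the lysosome, and had 590 in endoderm, 186 in mesoderm and 161 in epiblast, 3.67-fold above epiblast and 3.18-fold above mesoderm.

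**Figure D2:**
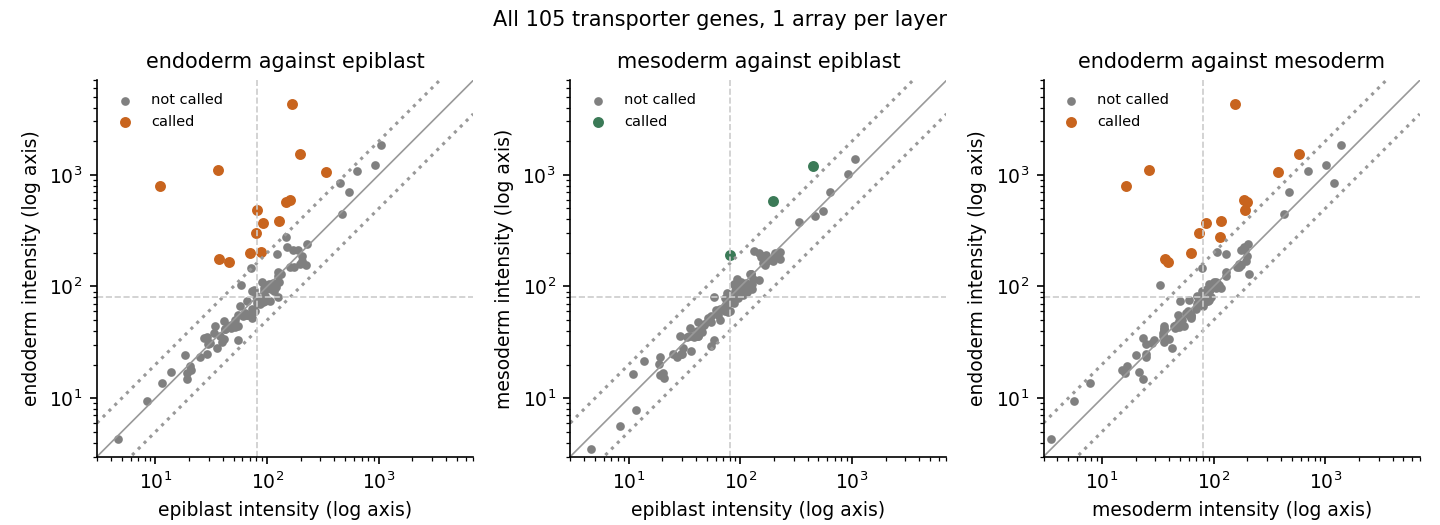
Intensity of all 105 transporter genes for each pair of layers on log axes, 1 point per gene from 1 array per layer, with equality as a solid line, 2-fold as dotted lines and the floor of 80.6 as dashed lines. Counted genes (coloured) lie on the endoderm side in the pairs with endoderm, 15 in each, and 3 lie on the mesoderm side against epiblast.

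Among the organic anion and cation carriers (21 Slc22a and 15 Slco genes), 5 genes were counted and 19 were below the floor on all arrays. The share counted was near the 13.2% of all genes counted in any pair. Slco4c1, known as an organic anion carrier of the kidney in rat and human, had 787 in endoderm, 16.3 in mesoderm and 10.9 in epiblast, which puts endoderm at least 9.76-fold above both. Its second probe set read 984 in endoderm, 12.8 in mesoderm and 10.4 in epiblast. Both probe sets were far below the floor outside the endoderm. Slco3a1, known as a prostaglandin and thyroid hormone carrier from the human protein, was graded across the layers, with 483 in endoderm, 190 in mesoderm and 80.5 in epiblast. Endoderm was at least 6.0-fold above epiblast and 2.54-fold above mesoderm, and mesoderm was at least 2.36-fold above epiblast. A second probe set followed the gradient (415 in endoderm, 169 in mesoderm and 71.3 in epiblast). The third was level (197 in endoderm, 161 in mesoderm and 169 in epiblast). Slco1a6 had 198 in endoderm, 63.0 in mesoderm and 70.3 in epiblast, at least 2.46-fold above both. The other 12 Slco genes were under 2-fold, 8 of them below the floor on all arrays, and these 8 included Slco1b2, the bile acid and drug carrier of liver cells. Slco1c1, a thyroid hormone carrier of brain vessels, was highest in mesoderm (129 in endoderm, 209 in mesoderm and 133 in epiblast), its log2 difference being -0.70 for endoderm minus mesoderm, under the limit.

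The Slc22a family was the largest, with 21 genes, and 11 of them were below the floor on all arrays. Slc22a23, an orphan member whose substrate is not settled, had 1531 in endoderm, 584 in mesoderm and 196 in epiblast. The gradient ran in the same order as that of Slco3a1, with 7.81-fold for endoderm against epiblast, 2.62-fold for endoderm against mesoderm and 2.98-fold for mesoderm against epiblast. Slc22a7, an organic anion carrier of liver and kidney, had 277 in endoderm, 114 in mesoderm and 148 in epiblast, 2.44-fold above mesoderm and 1.87-fold above epiblast. The carnitine transporter gene Slc22a5 had 227 in endoderm, 185 in mesoderm and 152 in epiblast. The kidney organic anion carrier Slc22a6 was below the floor on all arrays, and its relative Slc22a8, also of the kidney, was level at 136 in endoderm, 129 in mesoderm and 125 in epiblast.

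**Figure D3:**
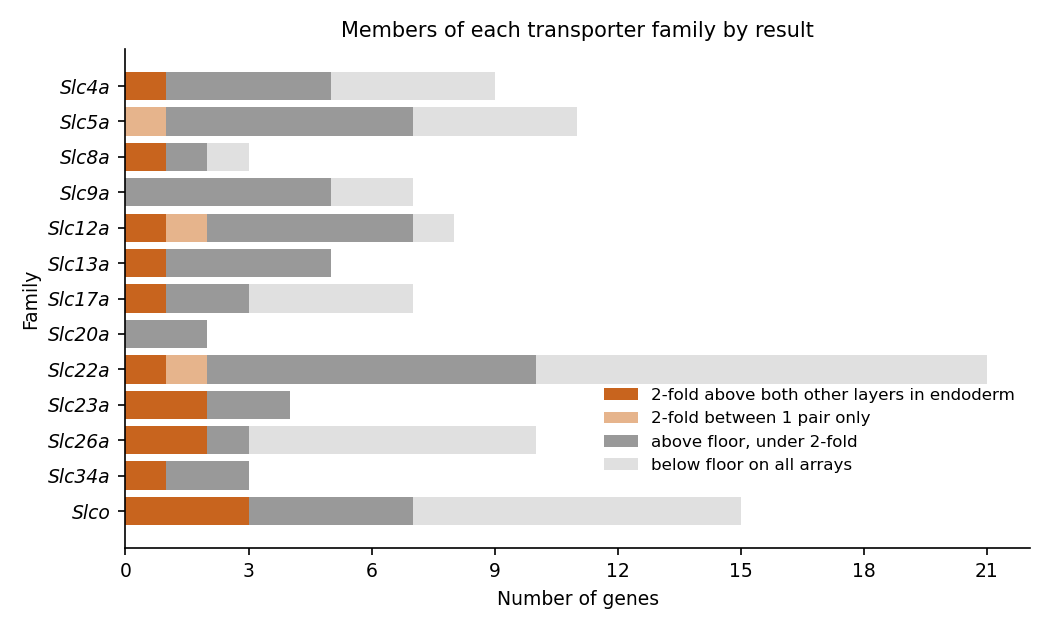
Number of genes in each of the 13 transporter families (horizontal axis), split by result from 1 array per layer. Genes 2-fold above both other layers in endoderm occur in 10 families, and the Slc22a, Slco and Slc26a families hold most of the genes below the floor on all arrays (11, 8 and 7).

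Of the chloride and bicarbonate exchangers, 2 genes were counted. Slc4a2, the broadly used chloride-bicarbonate exchanger AE2, had 568 in endoderm, 199 in mesoderm and 148 in epiblast, 3.84-fold above epiblast and 2.86-fold above mesoderm. Slc26a6, an apical anion exchanger for chloride, oxalate and bicarbonate, had 299 in endoderm, 74.7 in mesoderm and 80.2 in epiblast, at least 3.71-fold above both. Of the other 8 Slc26a genes besides Slc26a2, 7 were below the floor on all arrays, among them Slc26a4 (pendrin) and Slc26a5 (prestin). In the Slc4a family the sodium-bicarbonate cotransporter gene Slc4a4 was level by the probe set that stands for it, at 447 in endoderm, 430 in mesoderm and 468 in epiblast. Its 4 other probe sets differed. For mesoderm minus epiblast their log2 differences were 1.40, 0.83, 0.77 and -0.29, so that 1 of 5 probe sets (229 in endoderm, 310 in mesoderm and 117 in epiblast) passed the limit and the call for Slc4a4 depends on the probe set.

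Of 8 cation-chloride cotransporter genes 2 were counted, and 2 more stayed above the 75th percentile on all arrays with differences under 2-fold. Slc12a2 (NKCC1), which loads chloride into cells, had 1835 in endoderm, 1379 in mesoderm and 1055 in epiblast. Its 2 other probe sets had log2 differences of 0.75 and 0.74 for endoderm minus epiblast, close to the 0.80 of the first. Slc12a7 (KCC4), a potassium-chloride exporter, had 1073 in endoderm, 706 in mesoderm and 638 in epiblast. Slc12a9, an orphan relative, was 3.25-fold above mesoderm and 2.96-fold above epiblast, with 382 in endoderm, 118 in mesoderm and 129 in epiblast, from the only probe set of its pair that was above the floor. Slc12a4 (KCC1) had 204 in endoderm, 106 in mesoderm and 87.8 in epiblast, 2.32-fold above epiblast and 1.92-fold above mesoderm. The kidney cotransporter gene Slc12a1 was below the floor on all arrays, and Slc12a3, Slc12a5 and Slc12a8 stayed between 69.0 and 91.7.

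The sodium-proton exchangers showed no 2-fold difference once values were raised to the floor. Of 7 Slc9a genes, 5 were above the floor in at least 1 layer, among them Slc9a8, an exchanger of the Golgi and apical membrane, with 214 in endoderm, 176 in mesoderm and 190 in epiblast. Slc9a3, the exchanger of the intestinal and renal brush border, was close to the floor with 93.0 in endoderm, 87.8 in mesoderm and 76.2 in epiblast. Slc9a7 had 103 in endoderm, 33.1 in mesoderm and 58.5 in epiblast, at least 1.28-fold above both. It became counted where dim values were not raised to the floor. Of the sodium-calcium exchangers, Slc8a3 had 167 in endoderm, 39.3 in mesoderm and 45.4 in epiblast, at least 2.07-fold above both, the smallest difference counted, and its second probe set was below the floor on all arrays. Slc8a1, the exchanger of the heart, was level at 168 in endoderm, 193 in mesoderm and 203 in epiblast.

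Slc5a3 was the only transporter of the 17 with its highest value outside the endoderm. It encodes the sodium-myo-inositol cotransporter, which cells use to take up an osmolyte and lipid precursor, and had 849 in endoderm, 1198 in mesoderm and 451 in epiblast. The gene was 2.66-fold higher in mesoderm than in epiblast, while endoderm was 1.88-fold above epiblast and mesoderm and endoderm lay 1.41-fold apart. A second probe set gave the same order (139 in endoderm, 221 in mesoderm and 110 in epiblast), at a log2 difference of 1.01 for mesoderm minus epiblast, and the third was below the floor. Slc5a6, the sodium-dependent multivitamin transporter for biotin and pantothenate, came closest to the limit without reaching it, with 148 in endoderm, 78.8 in mesoderm and 72.1 in epiblast, at least 1.83-fold higher in endoderm. Of the glucose transporter genes of the family, Slc5a1 was below the floor on all arrays and Slc5a2 had 109 in endoderm, 102 in mesoderm and 89.9 in epiblast.

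**Figure D4:**
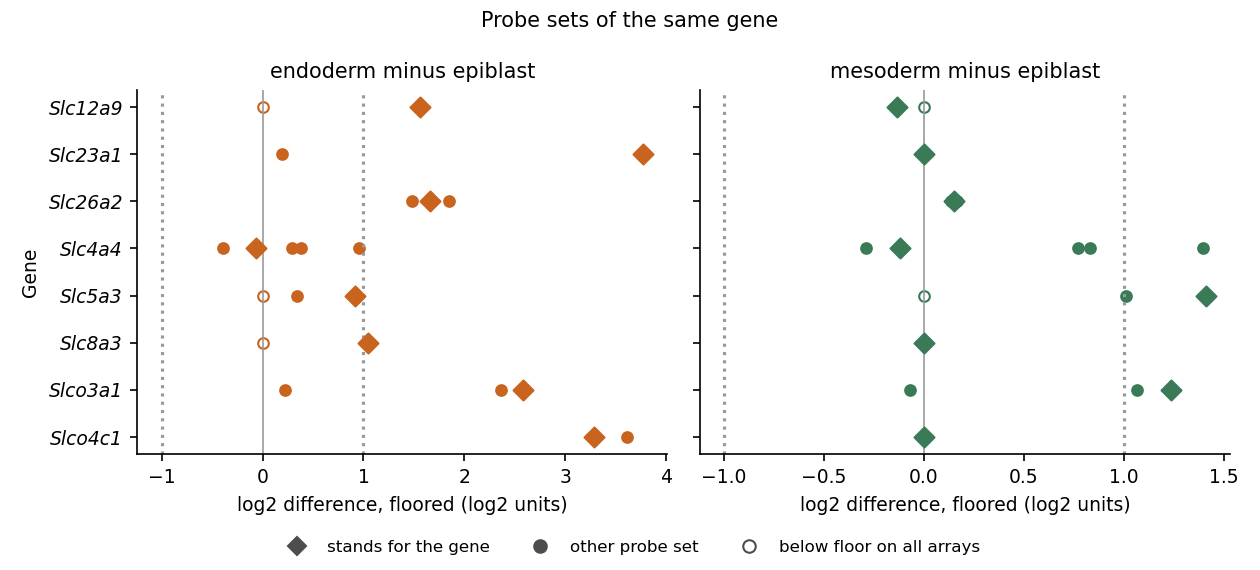
Log2 difference after raising values to the floor (horizontal axis) of every probe set of the 8 genes that had several probe sets and at least 1 of them counted, with the probe set that stands for the gene as a diamond. The probe sets of Slc26a2 and Slco4c1 lie together, from 1.48 to 1.85 and from 3.29 to 3.61 for endoderm minus epiblast. Those of Slc4a4 and Slco3a1 lie on both sides of the dotted 2-fold line for mesoderm minus epiblast. So do those of Slc5a3, through a probe set below the floor on all arrays.

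Across the 105 genes the median log2 difference was 0 in each pair, as it was over all genes, with 42 transporters below the floor on all arrays and so at 0. The share above the floor in at least 1 layer was 60.0% for the transporters and 70.3% for all genes. For endoderm minus epiblast 34.3% of the transporters were above 0 and 25.7% below it, against 38.01% and 31.4% of all genes. For endoderm minus mesoderm the shares were 39.0% and 17.1%, against 39.4% and 28.9%, and for mesoderm minus epiblast 21.9% and 28.6%, against 31.5% and 36.3%.

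Genes that work with these carriers were read from 8 further lists. In each list a gene was counted by the same rule, against the same shares of all genes as above. The sodium gradient itself comes from the Na,K-ATPase. Of 15 genes of its list measured, 1 was higher and 2 were lower in endoderm than in each other layer. Of 4 beta subunit genes, Atp1b1 was higher and Atp1b2 lower in endoderm. Atp1b1 had 4075 in endoderm, 486 in mesoderm and 795 in epiblast. Atp1b2 had 259 in endoderm, 783 in mesoderm and 731 in epiblast. Atp1b3 was under the limit, at 2896 in endoderm, 2485 in mesoderm and 2139 in epiblast, while Atp1b4 was below the floor on all arrays. Fxyd6, a modulator of the pump, was also lower in endoderm, with 136 against 292 in mesoderm and 404 in epiblast, and Fxyd3 was at least 1.94-fold above both, under the limit.

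In a list of scaffolds that tether carriers at the apical membrane and of regulators of exchangers, 5 of 10 genes measured were higher in endoderm for both pairs, the scaffold and linker genes Pdzk1, Ezr, Slc9a3r1 and Pdzd3 and the regulator Ahcyl2. Pdzk1, a PDZ scaffold of brush border transporters, had 2067 in endoderm, 148 in mesoderm and 179 in epiblast, 11.5-fold above epiblast and 13.9-fold above mesoderm. Ezr, which links membrane proteins to actin, had 4256 in endoderm, 540 in mesoderm and 1723 in epiblast. It was the 1 gene of the list lower in mesoderm than in epiblast (3.19-fold). Slc9a3r1 (NHERF1), the scaffold named for the exchanger Slc9a3, was 2.61-fold above epiblast and 3.26-fold above mesoderm, with 7164 in endoderm, 2197 in mesoderm and 2749 in epiblast. Pdzd3 was at least 2.88-fold above both. Among 11 WNK pathway genes, which switch the Slc12a cotransporters by phosphorylation, 1 was higher and 1 lower in endoderm for both pairs. Stk39 (SPAK), the kinase that acts on those cotransporters, had 123 in endoderm, 299 in mesoderm and 338 in epiblast. Sgk1, a kinase that raises sodium transport, had 4415 in endoderm, 1449 in mesoderm and 1086 in epiblast. Below the limit, Oxsr1 had 753 in endoderm, 447 in mesoderm and 546 in epiblast. Cab39, an activator of both kinases, had 1588 in endoderm, 1046 in mesoderm and 995 in epiblast.

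Carbonic anhydrases supply bicarbonate and protons to exchangers. Of 16 measured, 3 were higher and 1 lower in endoderm than in epiblast, 3 higher and 2 lower than in mesoderm, and 1 was higher in mesoderm than in epiblast. Car7, a cytosolic enzyme, had 4946 in endoderm, 73.3 in mesoderm and 81.0 in epiblast, 61.1-fold above epiblast and at least 61.3-fold above mesoderm, although epiblast was barely over the floor. Car2 was 4.46-fold and Car4, which sits on the outer membrane face, 3.38-fold above epiblast, with Car4 at 9065 in endoderm, 3576 in mesoderm and 2679 in epiblast. Car3 went the other way, with 275 in endoderm, 1811 in mesoderm and 800 in epiblast.

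Of 17 chloride channel genes measured, 7 were higher in endoderm than in epiblast, 7 were higher than in mesoderm and 0 were lower in either pair. Clic6 had 2261 in endoderm, 202 in mesoderm and 251 in epiblast. Clcn5, the endosomal exchanger needed for protein uptake in the kidney tubule, had 4269 in endoderm, 1035 in mesoderm and 1095 in epiblast. Clic1 had 3206 in endoderm, 746 in mesoderm and 776 in epiblast. Clcn3 was 2.64-fold higher in endoderm than in mesoderm and just under the limit against epiblast, at a log2 difference of 0.9996. Of 11 aquaporins 2 were higher in endoderm for both pairs. Aqp11 had 793 in endoderm, 158 in mesoderm and 212 in epiblast. Aqp3, which also passes glycerol, was 3.03-fold above epiblast. Aqp8 and Aqp2 were under the limit, 1.81-fold and 1.74-fold above mesoderm.

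In the list for phosphate handling 3 of 9 genes were higher and 2 lower in endoderm than in epiblast, 2 higher and 1 lower than in mesoderm, and 1 was higher in mesoderm than in epiblast. Xpr1, which exports phosphate from cells, had 2109 in endoderm, 484 in mesoderm and 422 in epiblast. Ank, which brings pyrophosphate out of the cell, had 817 in endoderm, 129 in mesoderm and 184 in epiblast. Pth1r, the parathyroid hormone receptor and also a parietal endoderm marker above, had 1548 in endoderm, 838 in mesoderm and 112 in epiblast. Fgfr1 was 2.11-fold lower in endoderm than in epiblast. ABC exporters, which pump organic anions and drugs out of cells that Slc22a and Slco carriers load, were higher in endoderm in 3 of 13 genes for both pairs, and Abcc1 was lower than in epiblast. Abcc2, the apical exporter of conjugates, had 359 in endoderm, 26.5 in mesoderm and 27.8 in epiblast, at least 4.45-fold above both. Abcc4 had 927 in endoderm, 88.3 in mesoderm and 240 in epiblast, so that it was also 2.72-fold lower in mesoderm than in epiblast. Abcg2 had 3323 in endoderm, 1360 in mesoderm and 662 in epiblast, being 2.06-fold higher in mesoderm than in epiblast.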

How the data were processed

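The study's methods name RMA with the affy package for arrays of E7.5 endoderm, mesoderm and epiblast (1 each). The authors deposited intensities in linear form. RMA usually ends on the log2 scale and the sources used here do not state how the linear form was made, which bears on differences of dim probe sets. The SAM test of the methods needs replicates and was not run.

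Of 45037 probe sets, 932 with several gene symbols in the platform annotation and 9160 not named were left out. Symbols of 34741 were checked by Entrez identifier and 0 changed. A gene took the probe set whose mean log2 over the arrays was highest. Values were raised to the median of the table (80.6, log2 6.33) before log2 differences were taken. Where the lower value was under it, a fold is given as "at least". Genes below the floor stayed in all shares. The rule was run on simulated data, in Python 3.11.15 with pandas 2.3.3. The changed genes there lay well above the floor, and the noise was smaller than the spread between probe sets. The simulation therefore does not show how the rule performs on dim genes or on these arrays. The number of arrays limits the precision.

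Named are transporters counted in any pair, those above the 75th percentile on all arrays, those whose probe sets disagree and, per further list, up to 4 genes with the largest range. Other transporters were named after their values were seen. The transporters, cell type markers and 8 further lists (114 entries, 102 measured) were chosen with earlier results of these data known. Alternatives were a floor at the 75th percentile, dim values not raised, a 3-fold limit, quantile normalization, cyclic loess (limma 3.58.1 in R 4.3.3), centring on housekeeping genes and 3 choices of probe set.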

Additional observations from a re-analysis of the deposited data

How the results depend on the processing

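Under the alternatives other than the 3-fold limit, 405 log2 differences of the 17 named transporters were recomputed. Of these, 311 moved by less than the spread between probe sets, 94 by more, and 0 of those counted changed sign. Part of the 311 was fixed in advance, because a gene with 1 probe set cannot move under the choices of probe set. In all 9 alternatives 0 transporters were lower in endoderm than in epiblast or mesoderm, or lower in mesoderm than in epiblast. Such calls were also rare over all genes. They ran from 0.621% (mesoderm against epiblast, floor at the 75th percentile) to 3.2% (endoderm against epiblast, quantile normalization). These shares are too low to read the 0 as a result about the transporters. The counts of higher genes moved. With a floor at the 75th percentile, endoderm exceeded epiblast in 6 transporters in place of 15 (4.84% of all genes), it exceeded mesoderm in 6 in place of 15 (4.18%), and it exceeded both in 6 in place of 14 (3.51%). A higher floor lowers every bound by construction. With a 3-fold limit 7 were higher in endoderm than in mesoderm (3.43% of all genes), 6 stood above both other layers (2.44%), and 0 in place of 3 were higher in mesoderm than in epiblast, where 0.753% of all genes were, too few to read the 0 as a result about the transporters. That last count was 1 with the mean of probe sets, where Slc12a9, Slc5a3, Slc8a3 and Slco3a1 lost a call. Arrays centred on the median of 7 housekeeping genes gave 23 of 105 transporters above epiblast in endoderm, and 3644 of 18193 genes. These shares lie close together, so the rise from 15 does not show a stronger endoderm excess of the transporters. This centring rests on Hprt on all arrays and shifts every gene by 0.63 (log2) for endoderm minus epiblast and 0.43 for endoderm minus mesoderm, with the median of all genes at 0.40 and 0.28. On the deposited scale 0 of these 7 genes were counted. Without raising dim values to the floor, Slc5a6 and Slc9a7 became counted. Quantile normalization took the call from Slc8a3. Slc22a7 has no probe set without a suffix that marks possible shared hybridisation, and Slc4a4 became counted without such probe sets. No paired analysis was possible because each layer had 1 array.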

Other observations

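Symbols that begin like those of the group but carry a further letter were outside its rule. Slc5a4a, a relative of the glucose transporters, had 49.2 in endoderm, 61.0 in mesoderm and 66.9 in epiblast. Slc5a4b had 38.9 in endoderm, 31.2 in mesoderm and 28.9 in epiblast, all below the floor. A probe set shared by Slc22a30 and Slc22a29 (23.2 in endoderm, 11.03 in mesoderm and 8.01 in epiblast), like 1 shared by Slc9a7 and a clone (61.8 in endoderm, 48.5 in mesoderm and 65.3 in epiblast), was left out because it carries several symbols, and all these values were below the floor.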
